A study of Mus musculus with 6 samples.

Results

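The 10 genes described here encode the FoxO transcription factors of skeletal muscle (Foxo1, Foxo3 and Foxo4), 5 subunits of ubiquitin ligases linked to muscle atrophy (Fbxo32, Trim63, Fbxo30, Fbxo21 and Fbxo31), and the stress-responsive genes Klf15 and Ddit4. They were chosen by gene symbol as FoxO factors and known atrophy genes, and all 10 were found among the 24411 genes of the count table. All 10 also passed the filter on low counts that left 12892 genes for testing. RNA was sequenced from the EDL (extensor digitorum longus), a muscle of the lower hindlimb made mostly of fast-twitch fibres, in C57BL/6J mice aged 50 weeks. The mAktDKO group consisted of 3 mice with Akt1 and Akt2 floxed and a Cre recombinase knocked in under the Mlc1f (myosin light chain) promoter, which is meant to delete both kinases in muscle fibres, and the control group of 3 mice with the same floxed alleles and no Cre. Cells of the muscle other than fibres keep both kinases in this model, and the RNA came from whole muscle. In such samples, fewer cells of a type and less RNA per cell cannot be told apart.

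FoxO factors drive genes of protein breakdown, autophagy and metabolism when they are in the nucleus. Akt, the kinase downstream of insulin and IGF-1, phosphorylates them and so keeps them in the cytosol, which means that their activity is set largely after transcription. The best-known FoxO targets in wasting muscle are Fbxo32 (atrogin-1), the F-box subunit of an SCF ubiquitin ligase, and Trim63 (MuRF1), a RING-finger ligase of the sarcomere. Both also respond to glucocorticoids.

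The promoter of Trim63 is shown because it alone, among the members with a promoter in the sequence table, held a match to a FoxO or a glucocorticoid motif. The table (RefSeq, GRCm38.p6, the sequence of mm10) has entries for 8 of the 10 genes, each with 250 bases before and 50 bases after the start of the gene. Fbxo32 and Foxo4 have no entry, so their promoters were not searched. The motifs searched on both strands were GTAAACA and CAAAACA, bound by FoxO factors, and the glucocorticoid response element, a palindrome of GNACA, 3 bases of any kind and TGTNC. Of the 32851 promoters of the table, 3.65% held GTAAACA, 6.28% held CAAAACA and 0.475% held the glucocorticoid response element. In the 250 bases before the start of Trim63 (chr4:134314870-134315119, plus strand), capitals mark the glucocorticoid motif from -208 to -196 and, after 1 further base, the FoxO motif on the opposite strand from -194 to -188.
Trim63: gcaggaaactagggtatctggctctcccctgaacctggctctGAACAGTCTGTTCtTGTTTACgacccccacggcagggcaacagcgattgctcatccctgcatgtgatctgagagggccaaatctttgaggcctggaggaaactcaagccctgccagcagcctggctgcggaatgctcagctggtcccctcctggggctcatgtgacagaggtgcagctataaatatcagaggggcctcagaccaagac
A match of this kind describes the sequence and does not show binding. The absence of these letters from the other windows says nothing of the factors either.

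The total of the estimated counts was between 13738795 and 15445523 per mouse, at which 3 counts correspond to 0.180 to 0.227 CPM (counts scaled to a common library size with TMM factors). The control mice carry the numbers 2 to 4 in the table. Akt2 averaged 51.0 ± 1.82 CPM in mAktDKO and 149 ± 20.3 CPM in control mice (SD, n = 3 each), and it fell by 1.55 on the log2 scale (adjusted p = 0.000923 by edgeR). It was 1 of the 3 genes in the table that passed an adjusted p of 0.01. Akt1 had 55.7 ± 3.89 and 66.2 ± 0.56 CPM (SD, n = 3 each), which did not pass (log2 fold change -0.25, adjusted p = 0.115 by edgeR). The markers of fast fibres were abundant in all 6 libraries, with the sum of 7 genes between 102759 and 112767 CPM in the mAktDKO mice and between 114326 and 124459 CPM in the control mice. Counts of the 10 genes were whole numbers in every mouse for 9 of them, and only Foxo1 had fractional estimates, in 2 mice. On the opposite strand, a gene model of GENCODE overlaps exons of Foxo1 (Gm20402) and one overlaps exons of Fbxo32 (Gm15943), and the strand setting of the counting step is not given in the sources used here.

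The question of the comparison was whether the transcripts of FoxO factors and their atrophy targets differed between the mAktDKO and control mice, whose whole-muscle RNA still held transcripts of Akt2 at 0.342 and of Akt1 at 0.842 of the control level. None of the 10 genes passed an adjusted p of 0.01, or of 0.05, in edgeR's quasi-likelihood test over all 12892 genes. Of all tested genes, 0.0233% passed 0.01 and 1.18% passed 0.05. Fbxo30, Fbxo31 and Ddit4 had an adjusted p under 0.1, as did 8.5% of all tested genes. The same 3 of the 10 had an unadjusted p under 0.05, beside 24.5% of all tested genes, with 1 higher (11.4% of all tested genes) and 2 lower (13.1%). DESeq2's Wald test called 1 of the 10 at an adjusted p under 0.01 (Ddit4) and 2 under 0.05 (Ddit4 and Fbxo31), where it called 3.55% and 8.17% of the genes to which it gave an adjusted p. The estimate was below 0 for 8 of the 10, as for 47.5% of all tested genes, and above 0 for 2, and the median estimate on the log2 scale was -0.13 against 0.017 over all tested genes. With library totals 5 of the 10 were below 0 and their median was -0.0045, where that of all genes moved to 0.16, and the median was -0.030 without control mouse 2 and -0.31 without mAktDKO mouse 3. The 3 mice of a genotype did not overlap with those of the other for 2 of the 10 genes, and for 31.1% of all tested genes. Of these 2, 1 was higher in the mAktDKO mice (14.6% of all tested genes) and 1 lower (16.6%).

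**Figure D1:**
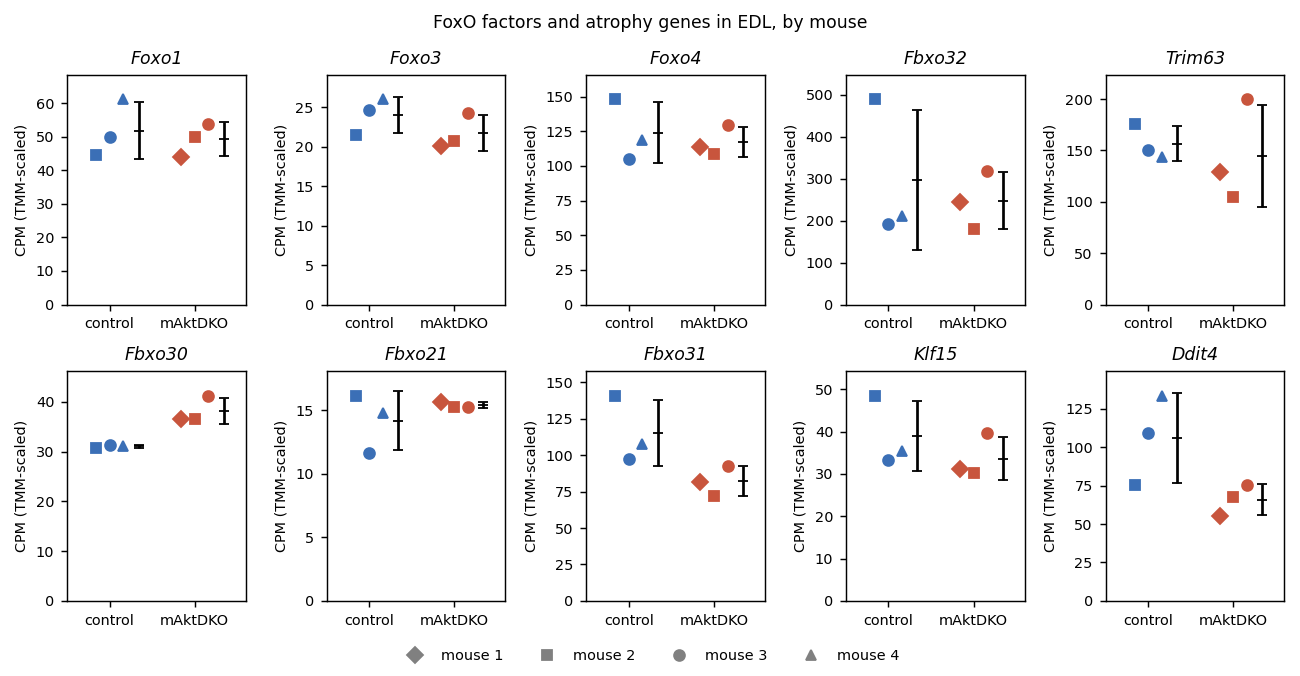
CPM (TMM-scaled, linear axis from 0) of each of the 10 genes in 3 control (blue) and 3 mAktDKO (red) mice, with the symbol giving the number of the mouse and the black mark the mean with its SD. The groups are apart for Fbxo30 and Fbxo31 alone, and control mouse 2 stands at 489.7 CPM for Fbxo32.

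The transcripts of the FoxO factors themselves lay close together in the genotypes. Foxo1 (chr3:52268336-52353221, plus strand, mm10) is a factor whose overexpression causes muscle loss in mice. It stood at 43.8, 50.0 and 53.8 CPM in mAktDKO mice 1 to 3 against 44.4, 49.8 and 61.2 CPM in control mice 2 to 4. The mice of each group are given in this order throughout. The groups overlapped, with control mouse 4 above and mAktDKO mouse 1 just below all mice of the other group. Its log2 fold change was -0.073 (standard error 0.13, 95% interval -0.36 to 0.22, adjusted p = 0.754 by edgeR). Foxo3, which drives both autophagy and ubiquitin ligase genes (chr10:42181841-42276755, minus strand), ran from 20.04 to 24.3 CPM in mAktDKO mice (20.04, 20.7 and 24.3) and from 21.5 to 26.0 CPM in controls (21.5, 24.6 and 26.0). The groups overlapped, with a log2 fold change of -0.15 (95% interval -0.40 to 0.10, adjusted p = 0.431 by edgeR). Foxo4, the X-linked member of the family (chrX:101254528-101260873, plus strand), measured 114, 109 and 129 CPM in mAktDKO against 148, 105 and 119 CPM in control mice, with control mouse 2 above and control mouse 3 below all mAktDKO mice. Here the log2 fold change was -0.082 (95% interval -0.37 to 0.21, adjusted p = 0.722 by edgeR). As ratios to the control level, the intervals ran from 0.777 to 1.16 for Foxo1, from 0.756 to 1.08 for Foxo3 and from 0.772 to 1.16 for Foxo4. With library totals in place of TMM, Foxo1 was at 0.060 and Foxo4 at 0.056. Foxo1 was also above 0 without control mouse 4 (0.062) and without mAktDKO mouse 1 (0.0031), and Foxo4 without control mouse 2 (0.064).

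The 2 ligases most often used as markers of atrophy varied more between mice of a genotype than between the genotypes. Fbxo32 (chr15:58175879-58214932, minus strand) measured 244, 181 and 318 CPM in mAktDKO against 489.7, 192 and 211 CPM in control mice. Control mouse 2 was the highest of all 6, and the other control mice lay within the range of the mAktDKO group. Its log2 fold change was -0.27 (standard error 0.34, 95% interval -1.04 to 0.51, adjusted p = 0.658 by edgeR). Without control mouse 2 it was 0.30, and without mAktDKO mouse 3 it was -0.50. Trim63, whose promoter is printed above (chr4:134315120-134329629, plus strand), measured 129, 105 and 199.95 CPM in mAktDKO against 176, 151 and 144 CPM in control mice. Here the mAktDKO group held both the highest and the lowest mice, and all control mice lay between them. Trim63 was at -0.12 on the log2 scale (standard error 0.21, 95% interval -0.58 to 0.35, adjusted p = 0.757 by edgeR), and it moved to -0.44 without mAktDKO mouse 3 and to 0.071 without mAktDKO mouse 2. In both genes the interval did not reach a 2-fold increase. Its upper bound was 1.42-fold for Fbxo32 and 1.28-fold for Trim63.

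The other F-box genes did not share a direction. Fbxo30 encodes MUSA1, an F-box protein held down by BMP signalling in muscle. Its transcript (chr10:11281330-11298052, plus strand) stood at 36.6, 36.6 and 41.3 CPM in mAktDKO against 30.7, 31.3 and 31.1 CPM in control mice, so that every mAktDKO mouse was above every control mouse. The control mice differed by a factor of only 1.02 from the lowest to the highest. The estimate on the log2 scale was 0.30 (standard error 0.084, 95% interval 0.11 to 0.49, adjusted p = 0.0905 by edgeR and 0.129 by DESeq2). With library totals in place of TMM it was 0.43 with an adjusted p = 0.0471 by edgeR, the 1 setting in which a member other than Ddit4 and Fbxo31 passed 0.05, and without one mouse the adjusted p was between 0.118 and 0.264. Fbxo31, the substrate-binding subunit of an SCF ligase known for targeting cyclin D1 (chr8:121549440-121578806, minus strand), stood at 81.5, 72.0 and 92.8 CPM in mAktDKO against 141, 97.2 and 108 CPM in control mice. All mAktDKO mice were below all control mice, although the highest of the former and the lowest of the latter were close. On the log2 scale the difference was -0.49 (standard error 0.15, 95% interval -0.82 to -0.16, adjusted p = 0.0998 by edgeR and 0.0192 by DESeq2). It was -0.32 without control mouse 2. When a single mouse was left out, edgeR gave Fbxo31 an adjusted p between 0.0975 and 0.331. For Fbxo30 and Fbxo31 a two-sided exact permutation test gave p = 0.1, the smallest that 3 mice against 3 allow. Any gene whose groups do not overlap gets this value, so it adds nothing to the separation. For the 8 members with overlapping groups the same test gave p between 0.2 (Foxo3 and Ddit4) and 0.8 (Fbxo32). Fbxo21 encodes SMART, a further F-box protein under FoxO control (chr5:117976730-118010201, plus strand). Its 15.7, 15.3 and 15.3 CPM in mAktDKO mice lay inside the range of the controls (16.2, 11.6 and 14.7 CPM), and the log2 fold change was 0.12 (95% interval -0.17 to 0.41, adjusted p = 0.585 by edgeR). This fold change was -0.0059 without control mouse 3 and 0.23 without control mouse 2.

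**Figure D2:**
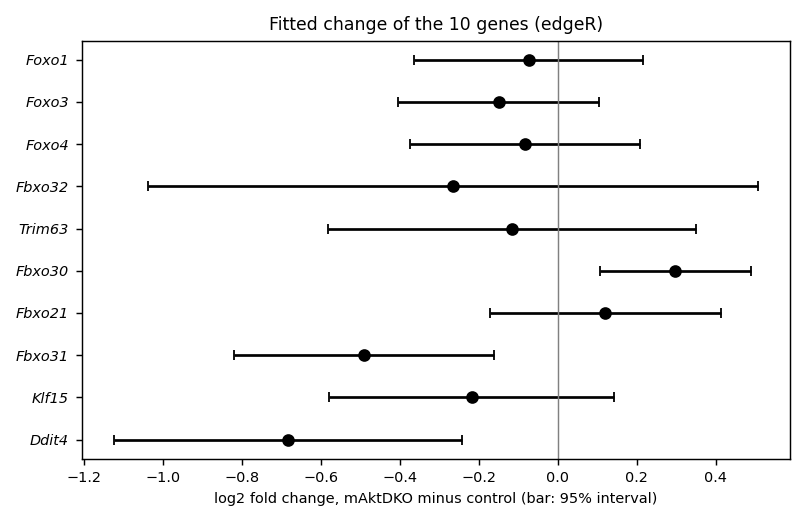
Log2 fold change of each of the 10 genes (mAktDKO minus control, edgeR) as a point with its 95% interval as a bar. The interval lies above 0 for Fbxo30, below 0 for Fbxo31 and Ddit4, and spans 0 for the other 7 genes, with the widest bar at Fbxo32 (-1.04 to 0.51).

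Of the stress-responsive genes, Ddit4 had the largest fold change of the 10 with every mouse in the fit. Ddit4 (REDD1) encodes an inhibitor of mTORC1 that is induced by glucocorticoids, fasting and hypoxia. Its transcript (chr10:59949669-59951834, minus strand) stood at 55.1, 67.5 and 75.2 CPM in mAktDKO against 75.1, 109 and 133 CPM in control mice. Group means of 65.9 ± 10.1 and 106 ± 29.3 CPM (SD, n = 3 each) were found, and the groups met at the boundary, where mAktDKO mouse 3 and control mouse 2 had nearly the same level. Ddit4 was at -0.68 on the log2 scale (standard error 0.19, 95% interval -1.12 to -0.24, adjusted p = 0.0908 by edgeR). With DESeq2's Wald test the adjusted p was 0.00527, and over all alternatives it was between 0.00527 and 0.280. Without control mouse 2, edgeR gave a log2 fold change of -0.88 and an adjusted p = 0.0226. Without control mouse 4, Ddit4 was at -0.48, and the largest fold change of the 10 was then that of Fbxo31 (-0.54). Klf15, a Krüppel-like factor of amino acid catabolism that is a target of the glucocorticoid receptor (chr6:90462576-90475238, plus strand), measured 31.1, 30.2 and 39.6 CPM in mAktDKO against 48.5, 33.3 and 35.4 CPM in control mice. Control mouse 2 was again the highest, and the other control mice lay within the range of the mAktDKO group. For Klf15 the log2 fold change was -0.22 (95% interval -0.58 to 0.14, adjusted p = 0.419 by edgeR), or -0.032 without control mouse 2.

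Levels were compared between genes only after division by the length of the exons. Per kilobase of exon (GENCODE M21, union of all annotated exons), the control mice had 60.3 ± 16.7 CPM of Ddit4, 55.2 ± 5.91 of Trim63, 42.7 ± 23.9 of Fbxo32 and 35.6 ± 6.29 of Foxo4 (SD, n = 3 each). The ranges of neighbours in this order overlapped, and that of Fbxo32 (27.5 to 70.2) overlapped with all the others. Foxo4 (30.2 to 42.5) lay wholly below Trim63 (50.5 to 61.8) and just below Ddit4 (42.8 to 76.0). Fbxo31 followed with 21.0 ± 4.15 and Klf15 with 14.0 ± 2.96 CPM per kilobase, and neither range overlapped with its neighbours. Foxo1 and Fbxo30 came next at 5.97 ± 0.99 and 5.97 ± 0.061 CPM per kilobase, with overlapping ranges. The lowest were Foxo3 at 3.18 ± 0.30 and Fbxo21 at 2.55 ± 0.42 CPM per kilobase, whose ranges overlapped with each other. Foxo4 was thus the most abundant of the FoxO transcripts per kilobase of exon. An exon annotated but not used in EDL makes this level too low, which was not tested.

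The spread between mice of a genotype differed widely among the 10 genes. The pooled SD within groups, on the log2 CPM scale, was 0.60 for Fbxo32, which exceeded that of 96.1% of the tested genes as a rank. It was 0.35 for Trim63 (rank 85.6%) and 0.34 for Ddit4 (rank 84.2%), against a median of 0.17 over all tested genes. Fbxo30 was at the other end with 0.071 (rank 9.28%). The FoxO factors were in the middle, with 0.20 for Foxo1, 0.14 for Foxo3 and 0.20 for Foxo4.

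The order of the mice within a group was compared across the 10 genes. Within the mAktDKO group, mouse 3 had the highest level of 9 of the 10 genes, where it was the highest for 34.2% of all tested genes. The exception was Fbxo21, whose levels differed by a factor of 1.03 in that group. Among control mice, mouse 2 was the highest for 6 genes (Foxo4, Fbxo32, Trim63, Fbxo21, Fbxo31 and Klf15), where it was the highest for 39.9% of all tested genes. The same mouse was the lowest of the controls for the other 4, where it was the lowest for 37.4% of all tested genes. It was at -0.46 from the group mean of log2 CPM for Ddit4 and at -0.21 for Foxo1. For Fbxo32 it was 1.28 above the mean of the other control mice on the log2 CPM scale. Counting gaps upward only, 53 of the 12892 tested genes, Fbxo32 included, had one at least as large.

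**Figure D3:**
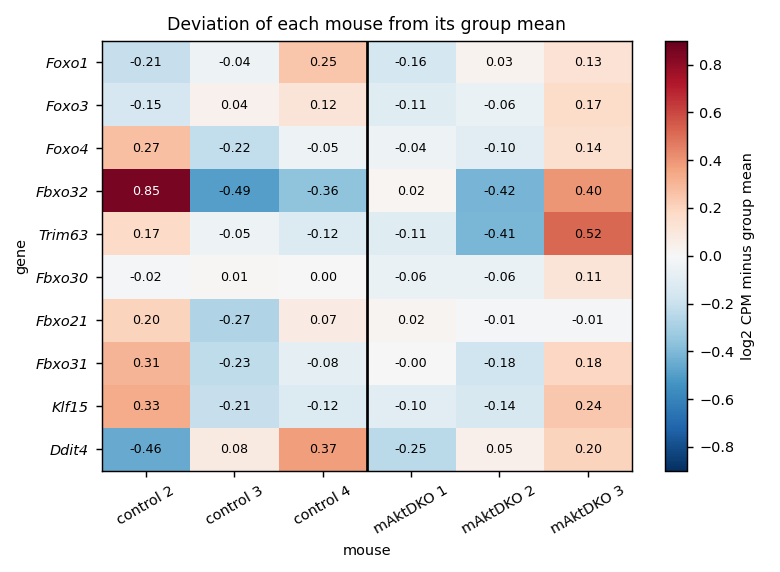
Log2 CPM of each mouse (columns) minus the mean of its group for each of the 10 genes (rows), with red above and blue below the mean. The column of mAktDKO mouse 3 is positive for 9 genes, and control mouse 2 ranges from 0.85 for Fbxo32 to -0.46 for Ddit4.

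Other measures moved with these mice. Control mouse 2 had the lowest mean correlation with the libraries of its own group (Pearson r = 0.977 over log2 CPM of tested genes, against 0.980 for the other control mice). Its sums were also the lowest of the 6 mice for the 4 fibro-adipogenic markers, at 7261 CPM against 15686 to 21680 in the others, and for the 5 macrophage and leukocyte markers, at 33.2 CPM against 45.7 to 56.9. They were the lowest for the slow fibre markers (523 CPM) and the Schwann cell markers (209 CPM) as well. Mouse 3 of the mAktDKO group had the highest sum of 4 immediate early genes (Fos, Junb, Egr1 and Atf3), at 427 CPM against 224 and 60.5 CPM in the other mAktDKO mice and 35.7 to 107 CPM in the control mice. It also had the highest sum of its group for fast fibre markers (112767 CPM) and the lowest for the markers of slow fibres (611 CPM), endothelial cells (380.4), macrophages (46.3), adipocytes (48.1), Schwann cells (230.1) and red blood cells (146). Its sum of fibro-adipogenic markers (21680 CPM) was instead the highest of the 6 mice, and that of satellite cell markers (5.97 CPM) lay between those of the other mAktDKO mice. The part of these differences in the levels of the 10 genes was not tested. Between genotypes, the sums of fast fibre, macrophage and satellite cell markers did not overlap, the first being lower and the other ones higher in the mAktDKO mice, and their part in the fold changes was not tested either.

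**Figure D4:**
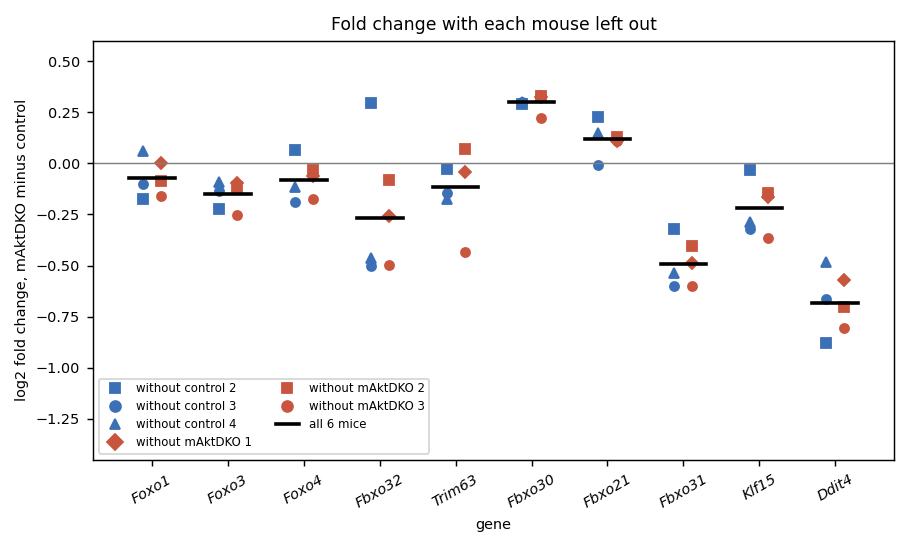
Log2 fold change (mAktDKO minus control, edgeR) of the 10 genes with all 6 mice (black line) and with each mouse left out (blue for a control, red for an mAktDKO mouse). Fbxo30, Fbxo31, Foxo3, Klf15 and Ddit4 keep their sign in all 6 fits, and Fbxo32 moves from -0.27 to 0.30 without control mouse 2.

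The genes that work with or downstream of the 10 were then examined in lists, none of which was adjusted on its own. Among 22 FoxO target genes, 14 had a higher and 8 a lower estimate, the median estimate was 0.076 on the log2 scale, and 0 passed an adjusted p of 0.05 in edgeR (7 at an unadjusted p under 0.05, or 31.8% beside 24.5% of all tested genes, 5 higher and 2 lower). The smallest p belonged to Ctsl, a lysosomal protease, with 125 ± 3.68 CPM in mAktDKO and 97.7 ± 4.21 CPM in control mice (SD, n = 3 each, log2 fold change 0.36, adjusted p = 0.054 by edgeR and 0.00981 by DESeq2). Cdkn1b, which encodes the cell cycle inhibitor p27, had 46.0 ± 2.85 and 34.9 ± 1.57 CPM (SD, n = 3 each, log2 fold change 0.40, adjusted p = 0.0557 by edgeR and 0.0233 by DESeq2). With library totals both Ctsl and Cdkn1b had an adjusted p = 0.041 by edgeR, and with no filter on low counts Cdkn1b had 0.0495. When a single mouse was left out, it was between 0.0474 and 0.245 for Ctsl and between 0.0659 and 0.234 for Cdkn1b. Mul1, a mitochondrial ubiquitin ligase, had 29.4 ± 0.59 and 35.3 ± 1.63 CPM (SD, n = 3 each), the opposite direction (log2 fold change -0.26, adjusted p = 0.104 by edgeR). The mice of the genotypes did not overlap for these 3 genes and for 6 of the 22 in all (27.3% beside 31.1% of all tested genes).

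Of 17 further ubiquitin ligases of muscle, 7 had a higher and 10 a lower estimate, with a median of -0.16, and 0 passed an adjusted p of 0.05 in edgeR (7 at an unadjusted p under 0.05, or 41.2% beside 24.5% of all tested genes). Asb2, the substrate receptor of a cullin ligase that limits muscle mass, had 305 ± 62.1 CPM in mAktDKO and 489 ± 98.0 CPM in control mice (SD, n = 3 each, log2 fold change -0.68, adjusted p = 0.0752 by edgeR and 0.00153 by DESeq2). Trim54 (MuRF3), a close relative of Trim63, had 134 ± 9.69 and 197 ± 46.4 CPM (SD, n = 3 each, log2 fold change -0.56, adjusted p = 0.0816 by edgeR and 0.00553 by DESeq2). Nedd4, a HECT-type ligase, had 790.1 ± 1.88 and 674 ± 10.1 CPM (SD, n = 3 each, log2 fold change 0.23, adjusted p = 0.127 by edgeR). With library totals it was at 0.37 with an adjusted p = 0.0499 by edgeR. The core of the SCF complex, into which F-box proteins fit, had 2 higher and 4 lower estimates among 6 tested genes and a median of -0.045, with 0 past 0.05 in edgeR and 1 at an unadjusted p under 0.05 (16.7% beside 24.5% of all tested genes). Its 3 smallest p-values were those of Cand1 at 0.25, Skp1a at -0.17 and Cul1 at 0.095 on the log2 scale (adjusted p = 0.16, 0.22 and 0.532 by edgeR).

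Among 17 regulators of FoxO, Akt2 was the only gene past an adjusted p of 0.05, beside 1.18% of all tested genes. At an unadjusted p under 0.05 there were 5 (29.4% beside 24.5%). The 2 lower ones of these 5 were Akt2 and Akt1, the targets of the knockout itself, and the other 3 were higher. The shares of this list thus hold a part that was set by the design. Over all 17 regulators the estimates were higher for 10 and lower for 7, with a median of 0.16. Crebbp, an acetyltransferase of FoxO factors, followed Akt2 and Akt1 with 115 ± 7.20 CPM in mAktDKO and 99.1 ± 3.34 CPM in control mice (SD, n = 3 each, log2 fold change 0.21, adjusted p = 0.152 by edgeR). Since Fbxo32, Trim63, Klf15 and Ddit4 answer to glucocorticoids, 12 genes of that response were examined. The estimate was lower for 10 of them and higher for 2, with a median of -0.14. In edgeR 1 passed an adjusted p of 0.05 while 0 passed 0.01, and Fkbp5 passed 0.01 by DESeq2. At an unadjusted p under 0.05 there were 4 (33.3% beside 24.5% of all tested genes), 3 lower and 1 higher. Fkbp5, which encodes a chaperone of the glucocorticoid receptor and is one of its most responsive targets, measured 23.0, 29.2 and 34.5 CPM in mAktDKO against 95.9, 55.3 and 75.1 CPM in control mice. All mAktDKO mice were well below all control mice. Fkbp5 was at -1.38 on the log2 scale (standard error 0.21, adjusted p = 0.0315 by edgeR and 3.65e-10 by DESeq2). It did not pass 0.05 in edgeR when mAktDKO mouse 1, 2 or 3 was left out (adjusted p = 0.106, 0.178 and 0.0792), in fits of 5 mice where the log2 fold change was -1.24, -1.39 and -1.54. With no filter on low counts edgeR gave Fkbp5 an adjusted p = 0.00557. Tsc22d3 (GILZ), another target of the receptor, had 304 ± 27.2 and 392 ± 35.5 CPM (SD, n = 3 each, log2 fold change -0.37, adjusted p = 0.0856 by edgeR and 0.0165 by DESeq2). Mt1, a metallothionein, had 15.95 ± 1.52 and 23.7 ± 6.41 CPM (SD, n = 3 each, log2 fold change -0.57, adjusted p = 0.112 by edgeR and 0.0399 by DESeq2). Without control mouse 2, edgeR gave Mt1 an adjusted p = 0.0448.

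Ddit4 was also set beside 8 other inhibitors of mTORC1, of which 3 had a higher and 5 a lower estimate, with a median of -0.14. At an unadjusted p under 0.05 there were 4 of the 8 (50.0% beside 24.5% of all tested genes), and the groups did not overlap for 62.5% of them (31.1% of all tested genes). Deptor, a subunit that restrains mTOR kinase, measured 182, 179.8 and 187 CPM in mAktDKO against 86.6, 120.4 and 97.9 CPM in control mice. The groups were far apart and the mAktDKO mice close together, at 0.85 on the log2 scale (standard error 0.12, adjusted p = 0.0218 by edgeR and 1.36e-08 by DESeq2), in the direction opposite to Ddit4. Deptor did not pass 0.05 in edgeR either when mAktDKO mouse 1, 2 or 3 was left out (adjusted p = 0.0966, 0.127 and 0.0979), at log2 fold changes of 0.85, 0.86 and 0.82, and it too had an adjusted p = 0.00557 with no filter on low counts. Tbc1d7, a subunit of the TSC complex, was at -0.48 and Sesn3, a sestrin under FoxO control, at 0.25 on the log2 scale (adjusted p = 0.129 and 0.147 by edgeR). Of 3 genes of amino acid breakdown linked to Klf15, Gpt had 12.2 ± 0.35 CPM in mAktDKO and 20.3 ± 4.73 CPM in control mice (SD, n = 3 each, log2 fold change -0.74, adjusted p = 0.0573 by edgeR and 0.00379 by DESeq2). In edgeR, Gpt had an adjusted p = 0.0364 with no filter on low counts. When a single mouse was left out it was between 0.031 (without control mouse 4) and 0.245. The others, Bcat2 and Prodh, were at -0.13 and -0.15 (adjusted p = 0.573 and 0.769 by edgeR).

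**Figure D5:**
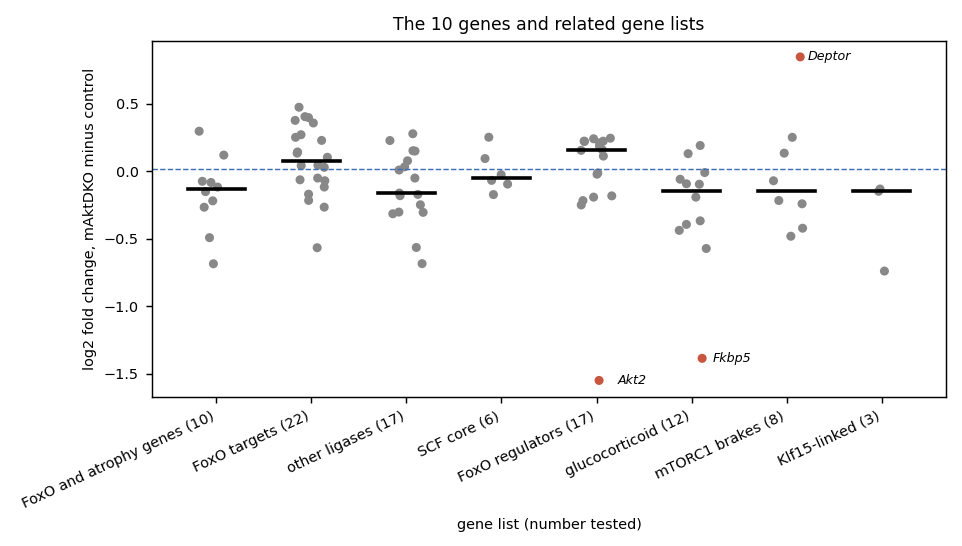
Log2 fold change (mAktDKO minus control, edgeR) of the genes in each list, 1 point a gene, with red and a name for an adjusted p under 0.05, a black line at the median of the list and a dashed line at the median of all tested genes (0.017). The 10 FoxO and atrophy genes lie between -0.68 and 0.30, and the named genes are Akt2, Fkbp5 and Deptor.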

How the data were processed

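The series holds EDL RNA-seq of 3 control floxed and 3 mAktDKO mice. The authors depleted rRNA, made strand-specific libraries, mapped paired reads to mm10 with STAR and estimated counts per gene with RSEM 1.3.1 (the submitters' processing notes give STAR 2.6.1b, and the methods another release). RSEM's estimated counts were deposited unscaled, and 3.36% to 4.09% of them were not whole. Pairs of mice differed by a chi-square of 7.22 to 65.8 per degree of freedom, above sampling noise.

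Rounded counts passed filterByExpr (minimum count 10) and TMM scaling, and edgeR 4.0.16 in R 4.3.3 gave the quasi-likelihood test, with Benjamini-Hochberg adjustment over 12892 genes and calls at an adjusted p under 0.01. The standard error is the log2 fold change divided by the square root of F, with 95% intervals from its degrees of freedom. Values of log2 CPM use a prior count of 2, and the floors of 3 counts cover counting error only. The labels call the replicates separate samples, and p-values measure the spread between them. Control columns carry numbers 2 to 4 and the labelled controls 1 to 3, so a control column stands for its group. On simulated counts of the 12892 genes with 200 changed 2-fold, edgeR recovered 162 and DESeq2 1.42.0 recovered 154, with 0 false calls each. Each simulated gene took the spread of the trend at its level, not its own. The recovery therefore does not carry over to genes as variable as Fbxo32, Trim63 or Ddit4.

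The members and lists were chosen with earlier results of these data known. Named genes are the 10 members, Akt1, Akt2, in each list the 3 with the smallest p, and any list gene past an adjusted p of 0.05. Alternatives were other scalings (library totals, upper quartile, DESeq2 size factors), DESeq2's Wald test, no filter, unrounded counts, a threshold of 0.05 and leaving out each mouse. Promoter sequences are from RefSeq (GRCm38.p6) and exon lengths from GENCODE M21.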

Additional observations from a re-analysis of the deposited data

How the results depend on the processing

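No paired analysis was possible because columns of control mice are numbered otherwise than their labels. Over all genes, 3 were called, against 341 with DESeq2's Wald test, 32 with no filter on low counts and 152 at an adjusted p under 0.05, and 0 to 8 without one mouse. The 10 FoxO and atrophy genes had 0 calls, also without any one mouse, and 1 (Ddit4) with DESeq2. The number with a log2 fold change below 0 was 8, or 5 with library totals, and 6 to 9 without one mouse. Their median was -0.13, or -0.0045 with library totals, and from -0.31 (without mAktDKO mouse 3) to -0.030 (without control mouse 2). Library totals moved the median of all genes from 0.017 to 0.16, and relative to it the median of the 10 was -0.16 in place of -0.15, with 8 below it in both. Library totals also turned Foxo1 (0.060), Foxo4 (0.056), Trim63 (0.0081), Bcat2 (0.011), Per1 (0.034) and Tie1 (0.028) positive. Leaving out each mouse in turn gave log2 fold changes of -0.50 to 0.30 for Fbxo32, -0.44 to 0.071 for Trim63, -0.19 to 0.064 for Foxo4, -0.17 to 0.062 for Foxo1, -0.0059 to 0.23 for Fbxo21, -0.24 to 0.050 for Bcat2, -0.33 to 0.19 for Prodh, -0.29 to 0.031 for Per1, -0.17 to 2.10 for Atf3 and -0.066 to 0.21 for Pax7. Fbxo30 (0.22 to 0.33), Fbxo31 (-0.60 to -0.32) and Ddit4 (-0.88 to -0.48) kept their direction there and in every other alternative. Akt2 was between -1.63 and -1.43, with an adjusted p over 0.01 whenever an mAktDKO mouse was left out, and Fkbp5 (-1.57 to -1.17 over all 6 omissions) and Deptor (0.74 to 0.99) then had one over 0.05, with fewer mice in the fit. The cause of the other shifts was not tested.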

Other observations

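The remaining marker lists were read in the same fit. In the red blood cell list, Hbb-bs was listed at 0 counts in all 3 control mice and had 23.5, 9.23 and 10.01 CPM in the mAktDKO mice (at least 65.1-fold higher against a floor of 3 counts per library, adjusted p = 0.018 by edgeR, but 0.0532 without mAktDKO mouse 2 and 0.0746 without mAktDKO mouse 3), whereas its near-identical neighbour Hbb-bt had 16.4 ± 6.67 and 11.8 ± 2.41 CPM (SD, n = 3 each, adjusted p = 0.318 by edgeR). The estimates of such copies are uncertain, and a difference between the groups in the sequence of this locus cannot be told apart from one in expression. Of the same list, Hba-a2 had 120 ± 15.9 and 56.8 ± 36.9 CPM (SD, n = 3 each, log2 fold change 1.07, adjusted p = 0.137 by edgeR), and the groups did not overlap. Without control mouse 2, edgeR gave Hba-a2 an adjusted p = 0.0133. Hba-a1 had 84.9 ± 55.7 and 74.2 ± 37.3 CPM (SD, n = 3 each, adjusted p = 0.845 by edgeR), with overlapping groups. No gene of the slow fibre (5 genes), macrophage (5), fibro-adipogenic (4) or adipocyte (4) markers passed an adjusted p of 0.05 in edgeR, with 2, 3, 2 and 4 of them at an unadjusted p under 0.05, all higher, beside 11.4% of all tested genes. The groups overlapped for every slow fibre and adipocyte marker. They were apart, and higher in mAktDKO, for 3 macrophage and 2 fibro-adipogenic markers, beside 14.6% of all tested genes. Of the macrophage markers, 1 had a lower estimate. Myh7, the slow myosin heavy chain, had 477 ± 189 CPM in mAktDKO and 256 ± 102 CPM in control mice (SD, n = 3 each, log2 fold change 0.90, adjusted p = 0.152 by edgeR), and Adipoq, an adipocyte hormone, had 14.8 ± 8.28 and 6.69 ± 2.55 CPM (SD, n = 3 each, log2 fold change 1.16, adjusted p = 0.154 by edgeR). Dcn, a proteoglycan of connective tissue, had 652 ± 58.0 and 439 ± 58.3 CPM (SD, n = 3 each, log2 fold change 0.57, adjusted p = 0.0539 by edgeR and 0.000317 by DESeq2). In edgeR, Dcn had an adjusted p = 0.0431 with library totals and 0.036 with no filter on low counts. When a single mouse was left out it was between 0.0493 (without control mouse 4) and 0.234. Of the fast fibre list, Myh1 had 11974 ± 411 and 17019 ± 925 CPM (SD, n = 3 each, log2 fold change -0.51, adjusted p = 0.0539 by edgeR and 1.89e-06 by DESeq2). For Myh1, edgeR gave an adjusted p = 0.0429 with no filter on low counts, and between 0.0582 and 0.234 when a single mouse was left out.

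The third mAktDKO mouse was the highest of its group for 18 of the 22 FoxO targets and 10 of the 12 glucocorticoid-response genes, besides 9 of the 10 FoxO and atrophy genes, against 34.2% of all tested genes. It was the highest for 12 of the 17 other ligases, 6 of the 8 mTORC1 inhibitors, 7 of the 17 FoxO regulators, 3 of the 6 SCF core genes and 1 of the 3 Klf15-linked genes. Control mouse 2 was the highest control for 11 of the 22 FoxO targets and 4 of the 12 glucocorticoid-response genes, 11 of the 17 other ligases, 5 of the 8 mTORC1 inhibitors, 6 of the 17 FoxO regulators, 2 of the 6 SCF core genes and 3 of the 3 Klf15-linked genes, against 39.9% of all tested genes.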
